A study of Mus musculus with 12 samples.

Results

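Regions of chromatin carrying H3K27ac inside protein-coding genes, away from the gene ends, were described in newborn mouse hearts. The members were taken from the union of the H3K27ac regions called in 6 hearts, joined where they overlapped by at least 1 bp, on the autosomes. A union region was kept when it overlapped a protein-coding RefSeq gene body and lay more than 1 kb from every protein-coding gene start and end. This left 40159 of 77817 union regions (51.6%), called interior regions here. Another 13713 lay at gene ends, within 1 kb of a start or end, and 23945 lay outside genes.

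The hearts came from edKO newborns, in which both Rxra and Rxrb were deleted in cardiomyocytes only (RXRab-/-), and from WT newborns, all at postnatal day 0. Each genotype had 3 hearts (numbered 1, 3 and 6 for edKO and 1, 3 and 4 for WT), and each heart was a biological replicate. Whole hearts were assayed by ChIP-seq after fixation with the crosslinkers DSG and formaldehyde, so cells other than cardiomyocytes, which keep both genes, are in every edKO value. The Cre driver is not given in the sources used here, and a histone mark does not check the deletion.

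H3K27ac is acetylation of lysine on the tail of histone H3, and it marks active promoters and active enhancers. Enhancers often lie within introns of the gene they act on or of a neighbouring gene, so marked chromatin well inside a gene can belong to an enhancer, to a start site of a shorter transcript, or to a broad domain spreading from the promoter. Retinoid X receptors pair with other nuclear receptors, among them the PPARs and the receptors for retinoic acid and thyroid hormone, and the pairs bind at promoters and enhancers. In heart, pairs with PPARs are known for their control of genes of fatty acid use.

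Windows at 3 annotated start sites inside genes are shown first, because the interior regions over them differed in length between genotypes and their sequence is annotated. Each window runs from 250 bases before to 50 bases after the start, from RefSeq on GRCm38.p6 (mm10), 5′ to 3′ on the strand of the gene. Capitals mark bases that lay in called regions of all 3 WT hearts but not of all 3 edKO hearts.
Acsl1, chr8:46490716-46491015, plus strand: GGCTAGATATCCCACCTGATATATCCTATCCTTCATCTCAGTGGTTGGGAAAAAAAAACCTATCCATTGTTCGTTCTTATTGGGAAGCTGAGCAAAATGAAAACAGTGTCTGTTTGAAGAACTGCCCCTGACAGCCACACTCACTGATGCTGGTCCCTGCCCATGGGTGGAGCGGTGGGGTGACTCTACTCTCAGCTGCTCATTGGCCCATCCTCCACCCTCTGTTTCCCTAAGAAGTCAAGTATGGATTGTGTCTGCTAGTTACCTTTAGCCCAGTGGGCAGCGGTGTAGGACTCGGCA
Mllt3, chr4:87806274-87806573, minus strand: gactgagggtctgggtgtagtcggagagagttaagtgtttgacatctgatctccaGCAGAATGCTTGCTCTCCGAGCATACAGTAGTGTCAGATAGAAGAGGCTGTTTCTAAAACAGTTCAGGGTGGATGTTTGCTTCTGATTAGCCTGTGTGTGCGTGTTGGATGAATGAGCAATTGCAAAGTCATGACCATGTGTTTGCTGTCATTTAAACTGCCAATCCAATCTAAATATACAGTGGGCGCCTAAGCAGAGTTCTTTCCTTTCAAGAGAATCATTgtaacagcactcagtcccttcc
Pde2a, chr7:101450766-101451065, plus strand: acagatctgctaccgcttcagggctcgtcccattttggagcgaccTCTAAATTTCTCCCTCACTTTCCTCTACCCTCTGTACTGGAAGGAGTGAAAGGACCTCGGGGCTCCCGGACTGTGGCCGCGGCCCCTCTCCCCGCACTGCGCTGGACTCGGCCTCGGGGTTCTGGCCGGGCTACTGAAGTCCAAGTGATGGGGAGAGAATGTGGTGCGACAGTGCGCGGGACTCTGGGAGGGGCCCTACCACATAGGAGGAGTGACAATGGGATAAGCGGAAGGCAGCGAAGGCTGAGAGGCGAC
In Acsl1, the acyl-CoA synthetase that activates long-chain fatty acids, all 300 bases are in capitals, since no base was covered in all 3 edKO hearts. Called regions covered 265, 205 and 50 bases of this window in edKO hearts 1, 3 and 6, against 300 in each WT heart. In Mllt3, which encodes a reader of acetylated histones, 223 bases are in capitals, and in Pde2a, a cGMP-stimulated phosphodiesterase, 255 are. Neither the Mllt3 nor the Pde2a window was covered in any edKO heart. AGGTCA, the half-site bound by many partners of RXR, was searched on both strands and occurs in none of these windows. It occurs in 14.6% of the 1392 internal start windows overlapped by an interior region, and in 14.7% of all 20084 start windows of the same length.

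The interior regions also overlapped 49 of 919 autosomal miRNA hairpins. The mature sequences below belong to the cardiac myosin genes and to a fatty acid oxidation gene, with the seed (bases 2 to 8) in capitals.
mmu-miR-208a-3p: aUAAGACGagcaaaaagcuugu
mmu-miR-208b-3p: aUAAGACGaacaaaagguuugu
mmu-miR-1960: cCAGUGCUguuagaagagggcu
The miRNAs miR-208a and miR-208b, encoded within Myh6 and Myh7, the alpha and beta myosin heavy chain genes, share the seed UAAGACG. The Myh6 region over the miR-208a hairpin covered 2426, 0 and 2579 bp in edKO hearts 1, 3 and 6, against 1163, 1916 and 1951 bp in WT hearts 1, 3 and 4. The Myh7 region over miR-208b covered 1944, 254 and 1879 bp in the edKO hearts, against 1758, 1568 and 1875 bp in the WT hearts. Both regions were small or not called in edKO heart 3, and the genotypes overlapped. The region over miR-1960 in Hadhb, a subunit of the mitochondrial trifunctional protein, covered 3084, 2761 and 2179 bp in edKO hearts, against 3765, 3794 and 3709 bp in WT hearts, with every edKO heart below every WT heart. Of the 49 regions over a hairpin, 26 were called in all 6 hearts, 11 in 1 heart, and 0 were restricted to a genotype. Of all interior regions, 26.4% were called in all 6 hearts and 38.4% in 1 heart. Only 1.19% were called in all WT hearts and no edKO heart, and 0.0722% the other way round. With shares this small, 0 of 49 is no result about hairpins.

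The called lists differed in length from heart to heart. They held 46967, 47302 and 66532 distinct autosomal regions in edKO hearts 1, 3 and 6, against 56696, 61688 and 65203 in WT hearts 1, 3 and 4. The labels give only an average read number for the series, so the depth of each heart is unknown. Absence from a list means that no region was called there, and not that the mark was missing. List length can move with depth as well as with the mark. The smallest total covered length was in edKO heart 3, where interior regions covered 17591615 bp, against 24616701 to 27629356 bp in the WT hearts. All 16 cardiomyocyte markers had called regions in all 6 hearts, as did all 14 fibroblast and 15 endothelial markers. Leukocyte markers were called in all hearts for 2 of 12 genes and in no heart for 6, and erythroid markers for 1 of 7 and in no heart for 4. In bulk hearts, fewer cells of a type and less of the mark per cell cannot be told apart.

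Interior regions numbered 21348, 20200 and 32617 in edKO hearts 1, 3 and 6, against 26416, 28873 and 32340 in WT hearts 1, 3 and 4. They made up 45.5, 42.7 and 49.0% of the edKO lists, against 46.6, 46.8 and 49.6% of the WT lists. The edKO mean of 24722 ± 6862 regions and the WT mean of 29210 ± 2976 (SD, n = 3 each) did not differ beyond the spread (exact permutation test, two-sided, p = 0.4; 3 against 3 hearts cannot go below 0.1). The median width of interior regions was 801, 552 and 463 bp in the edKO hearts, against 634, 581 and 450 bp in the WT hearts (exact permutation p = 0.8). Covered length, the share of regions with several summits and the share of the list gave exact p-values of 0.3, 1 and 0.4. No genotype difference in these totals was detectable with 3 hearts each.

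Interior regions were narrower and weaker than regions at gene ends. Within each heart's own list, their median width averaged 580 ± 129 bp, against 1303 ± 207 bp at gene ends (SD, n = 6 hearts). The difference was -723 bp, in the same direction in 6 of 6 hearts (exact sign-flip test, two-sided, p = 0.03125, the smallest that 6 hearts allow). Part of this difference is set by the rule, since a wide region reaches within 1 kb of a gene end more easily. The test cannot separate that part from the rest. The authors' fold enrichment was used only to rank regions within a list. The median rank percentile of interior regions was 41.3 ± 0.79, against 81.7 ± 2.12 at gene ends, again lower in 6 of 6 hearts (exact sign-flip p = 0.03125). Several summits were called in 33.1 ± 3.53% of interior regions, against 51.0 ± 3.75% of regions at gene ends (exact sign-flip p = 0.03125).

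Interior regions stood close to regions outside genes by these measures. The difference in median width from regions outside genes was 5.67 ± 7.06 bp (SD of the difference, n = 6, range -1 to 14 bp, exact sign-flip p = 0.25). Their median fold percentile was 1.62 lower, with 5 of 6 hearts lower and the other equal (exact sign-flip p = 0.0625). The share with several summits was 2.07 percentage points higher inside genes than the 31.0% outside genes, in 6 of 6 hearts (exact sign-flip p = 0.03125).

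**Figure D1:**
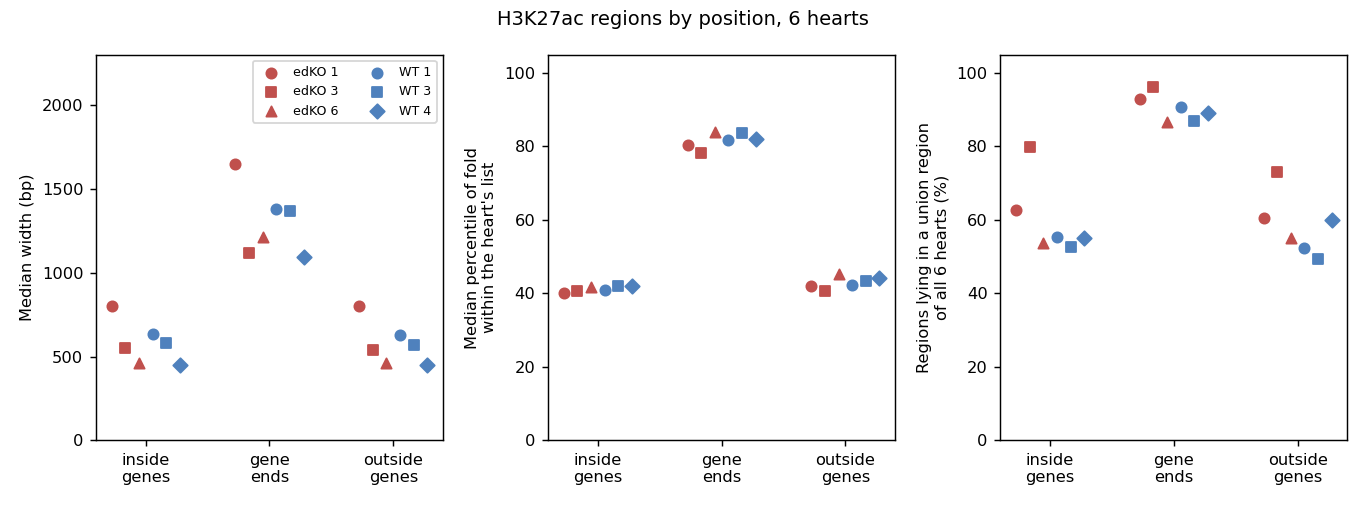
Median width (bp), median percentile of the authors' fold within the heart's list, and percent of regions lying in a union region called in all 6 hearts, for regions inside genes, at gene ends and outside genes; each point is a heart, red for edKO and blue for WT. In every heart the points for regions inside genes lie below those for gene ends, between 450 and 801 bp for width and between 40.2 and 42.1 for the percentile.

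The union regions inside genes had a median width of 594 bp, with quartiles at 327 and 1370 bp and a widest region of 26772 bp. They covered 43351921 bp, 45.3% of all base pairs in the union. The nearest protein-coding gene end was a median of 23293 bp away (quartiles 8647 and 54456 bp). Of the interior regions, 39805 lay in 1 gene, 330 in 2 genes and 24 in more than 2. Values changed little at the 1 kb limit. The 813 interior regions from 1 to 1.5 kb from a gene end had a median width of 533 bp and 27.7% were called in all 6 hearts. The 1344 regions from 0.5 to 1 kb, just outside the rule, had 581.5 bp and 29.7%.

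Sharing over hearts fell into 2 extremes. Of the interior regions, 15421 (38.4%) were called in 1 heart and 10612 (26.4%) in all 6, with 5145, 3311, 2670 and 3000 called in 2, 3, 4 and 5 hearts. At gene ends 76.3% were called in all 6 hearts, and outside genes 28.0% were. Counted within each heart, 59.9 ± 10.4% of interior regions lay in a union region of all 6 hearts, against 90.4 ± 3.70% at gene ends. The share was lower than at gene ends in 6 of 6 hearts (n = 6, exact sign-flip p = 0.03125). Outside genes it was 58.4 ± 8.41% (exact sign-flip p = 0.375). Each heart's share is defined by the calls of all 6 hearts. The 6 values are thus not independent, and these p-values add little to the shares of union regions. Width followed sharing: median union width was 298 bp for interior regions called in 1 heart and 2049 bp for those called in all 6, and the median fold percentile was 17.7 and 62.9. A region called in more hearts joins more intervals, which by itself widens it. Interior regions called in a single heart numbered 1228, 389 and 4325 in edKO hearts 1, 3 and 6, against 2146, 2523 and 4810 in WT hearts 1, 3 and 4. They were most numerous in edKO heart 6 and WT heart 4, which had the longest lists.

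**Figure D2:**
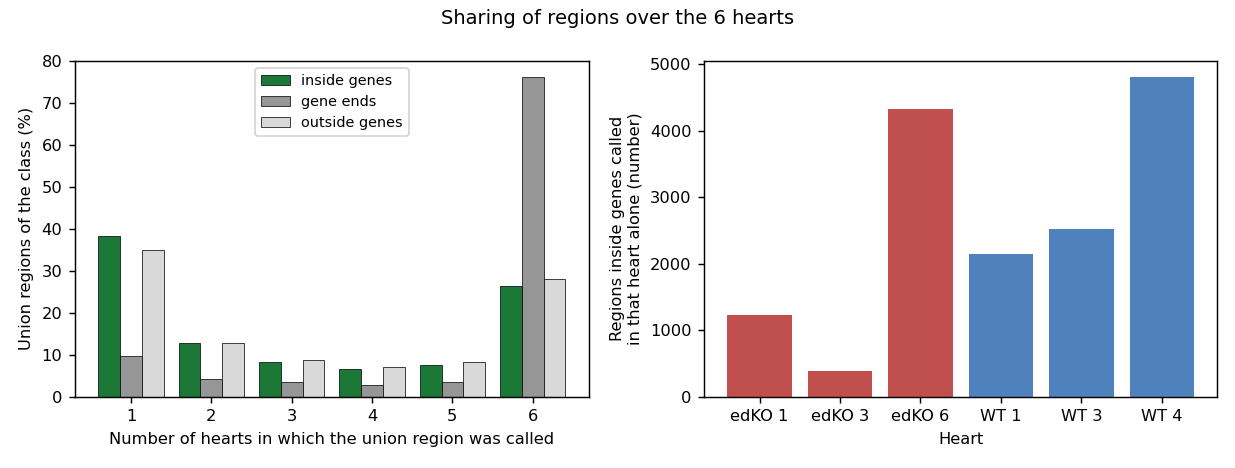
Left, percent of union regions by the number of hearts in which they were called, for regions inside genes, at gene ends and outside genes; right, number of regions inside genes called in that heart alone, red for edKO and blue for WT. Regions inside genes peak at 1 heart (38.4%) and at 6 hearts (26.4%), while 76.3% of those at gene ends were called in all 6.

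Interior regions were spread over 7228 of 20661 autosomal protein-coding genes, with a median of 2 per gene. A single region was found in 2336 genes, 1166 genes held at least 10, and 48 held at least 50. The 723 genes with the most regions held 46.3% of all gene-region pairs. Longer gene bodies held more regions (Spearman rank correlation 0.538 over 7228 genes, which share the same 6 hearts and are not replicates). Arhgap26, a GTPase-activating protein, held the most, 122 regions, of which 26 also lay in another gene. Msi2, an RNA-binding regulator of translation, held 118, Pakap, which encodes a kinase-anchoring protein, 107, and Nfia, a nuclear factor I transcription factor, 96. Cacna1c, the pore subunit of the cardiac L-type calcium channel, held 88, and Rbm20, the splicing regulator of titin, 78. The rest of the 12 were Gse1 and Lpp with 79 each, Frmd4a with 78, Rad51b and Palld with 77 each and Cdkal1 with 76.

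Most regions of these genes were not called in every heart, and neither were most interior regions, of which 26.4% were called in all 6. Of the 122 regions of Arhgap26, 37 were called in all 6 hearts, as were 32 of 118 in Msi2, 30 of 96 in Nfia and 27 of 107 in Pakap. Cacna1c had 11 of 88. Rad51b and Nav2 each held 26 such regions. Relative to gene length, the densest genes with at least 8 regions were Ahdc1 with 55.4 regions per 100 kb, Abhd17c, a protein depalmitoylase, with 54.1, and Anp32a with 42.7. Glipr2 had 42.0, Nfe2l2, the oxidative stress regulator NRF2, had 41.2, and Mmp28, a secreted metalloproteinase, had 40.4. Over all genes with an interior region the density was 5.86 per 100 kb.

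The widest interior region lay in Gata4, a transcription factor required for heart formation, at chr14:63231016-63257787 (mm10), 26772 bp wide and 13925 bp from the nearest gene end. Called regions covered 24847, 21370 and 25318 bp of it in edKO hearts 1, 3 and 6, against 24211, 24620 and 24162 bp in WT hearts 1, 3 and 4. The next widest lay in Grb10, an adaptor of insulin and growth factor receptors (24826 bp), Aopep, an aminopeptidase (24292 bp), Pkig, an inhibitor of protein kinase A (23350 bp), and Srl, the sarcoplasmic reticulum protein sarcalumenin (21469 bp). All 5 were marked in every heart, in 2 to 11 called pieces per heart. The total covered length inside Gata4 was 31702, 26397 and 33613 bp in edKO hearts, against 31066, 33781 and 33918 bp in WT hearts, and the genotypes overlapped.

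Some interior regions lay on start sites of shorter transcripts. Of 3465 annotated start windows inside gene bodies and more than 1 kb from every gene end, 40.2% were overlapped by an interior region. The 1222 interior regions on such a window (3.04%) had a median width of 1863.5 bp and a median fold percentile of 80.9, against 574 bp and 30.1 for the other 38937. They were called in all 6 hearts in 81.1% of cases, against 24.7%. A wider region meets a window more easily, and wider regions were shared by more hearts. The overlap rule thus sets part of these differences. Per heart, regions on a start had median percentiles of 75.0, 70.9 and 78.2 in edKO hearts 1, 3 and 6, and 75.7, 78.7 and 76.2 in WT hearts 1, 3 and 4. Gene ends in the same hearts had 78.3 to 84.0.

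To compare genotypes gene by gene, the base pairs covered by interior regions in each heart were summed per gene. Values were taken as log2(bp + 200), centred per heart and tested with limma in the 4791 genes with a mean of at least 500 bp. This mean is taken over the hearts of both genotypes, so a gene could pass through the length of 1 genotype alone. Covered length fell in edKO hearts in 7 genes (0.146%) and rose in 0 (0%) at an adjusted p under 0.05 (limma, Benjamini-Hochberg over all genes tested). At an unadjusted p under 0.05, 245 genes (5.11%) were lower and 67 (1.4%) higher, against 303 and 2 without the centring. The centring moves the median of all genes from -0.16 to 0.03 on the log2 scale, and differences below are relative to it. In raw base pairs, every edKO heart lay below every WT heart in 522 genes (10.9%) and above in 27 (0.564%), in lists that were shorter for 2 of 3 edKO hearts. The 7 calls rest on every heart. Without edKO heart 1 there were 3 calls, all among the 7. Without edKO heart 6 there were 2, of which 1 was among the 7. Without edKO heart 3 or any 1 of the WT hearts there were 0. With stricter lists there were 0, and without centring or with lists of equal length 1 of the 7 was called.

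Hsdl2, a dehydrogenase-like protein with a sterol carrier domain, had the smallest p. The mean of its edKO hearts, 377 bp, lay below the filter on mean covered length. Hsdl2 thus passed the filter through its WT hearts (mean 4093 bp), which fixed the direction of its difference. Its interior regions covered 355, 294 and 481 bp in edKO hearts 1, 3 and 6, against 3356, 4276 and 4647 bp in WT hearts 1, 3 and 4, a log2 difference of -2.71 (SE 0.26, limma adjusted p = 0.0210). The edKO values lie in 1 short region shared by all 6 hearts, and the missing length is a region at chr4:59583748-59587633, 2231 bp from the gene end. No edKO heart had a call there, against 2852, 3761 and 3852 bp in WT hearts 1, 3 and 4. The ends of Hsdl2 were marked over 1972, 1942 and 1984 bp in edKO hearts and 2001 bp in each WT heart. End length counts only bases within 1 kb of the gene's start and end, and 2001 bp is the length of 1 such window. Marking that reaches farther is not counted, so near this value a difference at the ends could be missed.

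Bmpr1a, a type I receptor for bone morphogenetic proteins needed for heart development, had 2065, 1343 and 1488 bp in edKO hearts, against 6104, 5412 and 5649 bp in WT hearts. The log2 difference was -1.52 (SE 0.19, limma adjusted p = 0.0376). Its largest WT region, at chr14:34488545-34490882, covered 2248, 2338 and 1843 bp in WT hearts and was not called in any edKO heart, while 2 other regions of the gene were called in all 6. Zranb3, a DNA fork-remodelling enzyme, had 1648, 1148 and 1607 bp in edKO hearts, against 4609, 5171 and 5490 bp in WT hearts (log2 difference -1.49, SE 0.19, limma adjusted p = 0.0376). A region at chr1:127989237-127991300 was called over 2048, 1747 and 1621 bp in WT hearts and in no edKO heart. Another Zranb3 region, at chr1:127958518-127959910, covered 1163, 1148 and 1075 bp in edKO hearts, against 712, 1331 and 1282 bp in WT hearts, and overlapped between genotypes.

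Efcab11, an EF-hand protein, had 1190, 371 and 553 bp in edKO hearts, against 5308, 4867 and 3466 bp in WT hearts (log2 difference -2.29). Impa2, an inositol monophosphatase, had 1254, 342 and 701 bp in edKO hearts, against 3971, 4949 and 5918 bp in WT hearts (-2.32). Pld1, a phospholipase that makes phosphatidic acid, had 2966, 2293 and 3194 bp in edKO hearts, against 8058, 7609 and 6644 bp in WT hearts (-1.16). In each of these 3 genes the lengths of the genotypes do not overlap, and the limma adjusted p-values run from 0.0376 to 0.0463. A region of Pld1 was called in all 6 hearts at chr3:27983403-27985168, with 1528, 1045 and 1319 bp in edKO hearts and 1359, 1609 and 1739 bp in WT hearts.

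Ces1e, a carboxylesterase in a cluster of similar genes, was marked in the middle of the gene and not within 1 kb of its ends in any heart. Interior regions covered 810, 694 and 914 bp in edKO hearts, against 4483, 3263 and 2965 bp in WT hearts (log2 difference -1.70, SE 0.22, limma adjusted p = 0.0376). The whole edKO length lies in 1 region called in all 6 hearts, at chr8:93216351-93219255, which covered 2755, 2905 and 2739 bp in WT hearts. In WT heart 1 a further 309, 524 and 895 bp lay in 3 other regions. Reads from near-identical copies could be shared within the cluster, so the value of this gene is uncertain. Of the 7 genes, 6 held a region called in all 3 WT hearts and no edKO heart, 8 such regions in all, and Ces1e held none. Among all 7228 genes with an interior region, 424 held one. The 7 genes were called for low edKO length in these same regions, so the count is no separate support.

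**Figure D3:**
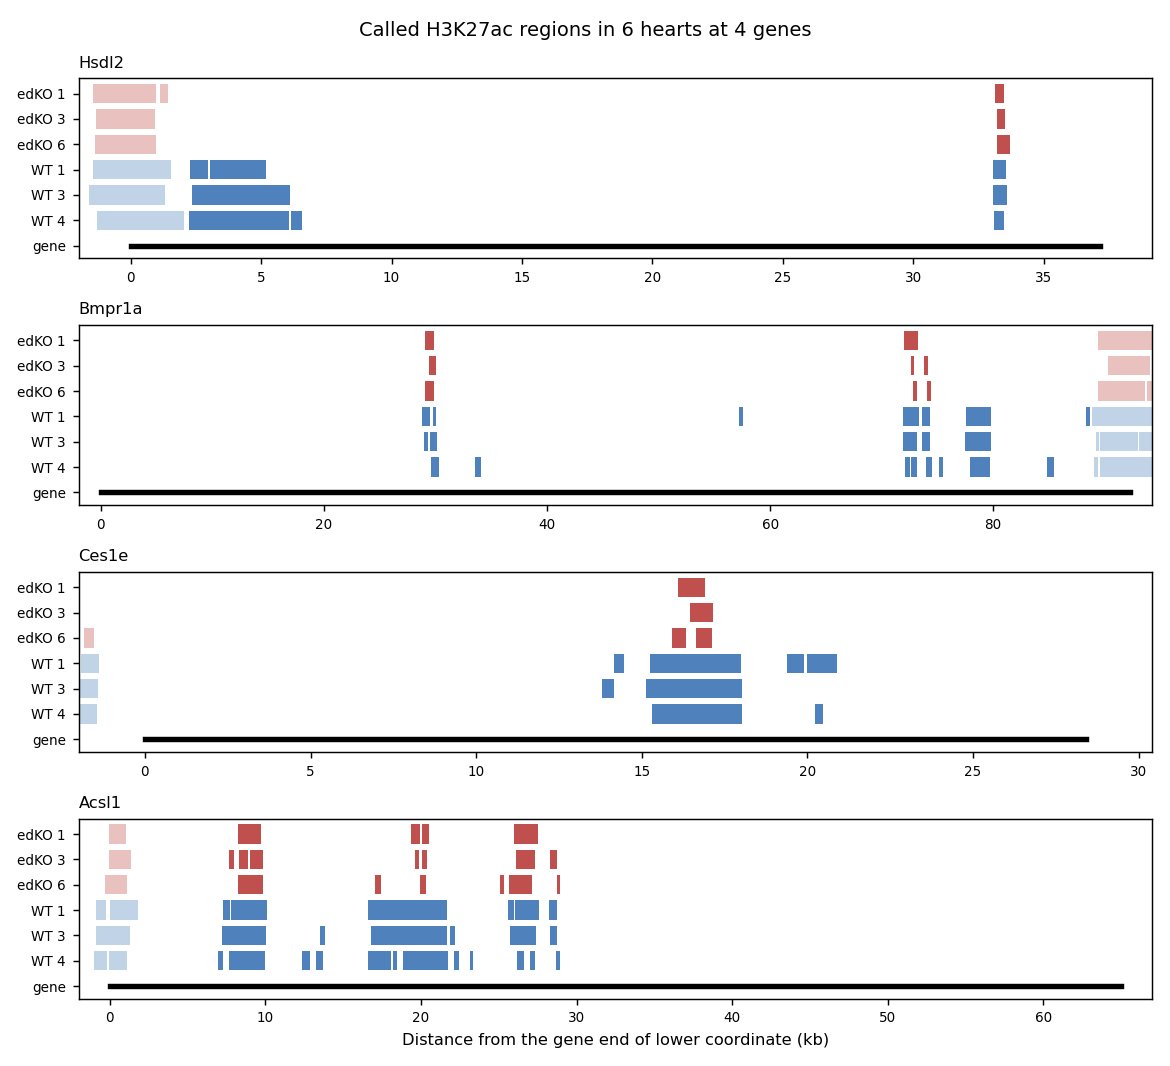
Called regions along Hsdl2, Bmpr1a, Ces1e and Acsl1, by distance from the gene end of lower coordinate (kb); each row is a heart, edKO in red above WT in blue, full colour for interior regions and pale for regions at gene ends or outside genes, with the gene body in black. In Hsdl2 the interior block next to the gene end is seen in the 3 WT rows and in no edKO row, while in Ces1e and Acsl1 the same place is marked over a shorter length in edKO.

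Acsl1 did not pass the threshold. Its interior regions covered 4030, 3958 and 4345 bp in edKO hearts, against 10409, 10609 and 9632 bp in WT hearts, with no overlap between genotypes (log2 difference -1.09, SE 0.17, limma adjusted p = 0.103). The region over the internal start shown above, chr8:46487625-46492775, covered 1030, 594 and 761 bp in edKO hearts, against 5114, 4896 and 4566 bp in WT hearts. Its fold percentile was 25.8, 27.7 and 35.4 in the edKO lists, against 95.4, 94.7 and 90.6 in the WT lists. Within 1 kb of its ends, Acsl1 had 1062, 1034 and 1317 bp in edKO hearts, against 1674, 1890 and 1872 bp in WT hearts.

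Other separated genes with the smallest p-values also missed the threshold. Elmod3, a member of the ELMO domain family, had no called interior region in the 3 edKO hearts, against 2387, 1981 and 3132 bp in the WT hearts (limma adjusted p = 0.0518). Crat, the carnitine acetyltransferase, had 1029, 473 and 1041 bp in edKO hearts, against 2922, 3317 and 4727 bp in WT hearts (log2 difference -1.72, limma adjusted p = 0.103). Tuba8, an alpha tubulin, had 0, 0 and 261 bp in edKO hearts, against 1755, 2304 and 2508 bp in WT hearts, and Cdk1, the kinase that drives mitosis, had 396, 477 and 313 bp against 2069, 2294 and 2533 bp. Their limma adjusted p-values were 0.138 and 0.159. The edKO means of Elmod3, Tuba8 and Cdk1 were 0, 87 and 395 bp, below the filter on mean covered length. These genes passed the filter through their WT hearts, which fixed their direction.

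**Figure D4:**
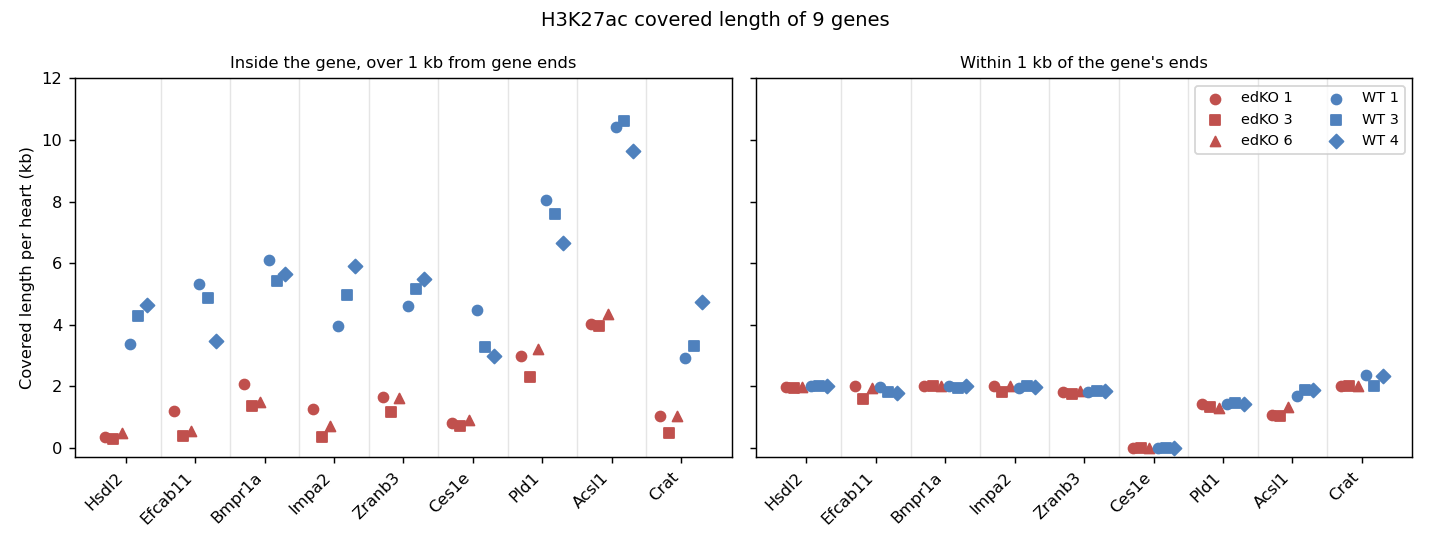
Covered length (kb) per heart inside the gene (left) and within 1 kb of its ends (right) for the 7 genes past the threshold and for Acsl1 and Crat, which did not pass it; each point is a heart, red for edKO and blue for WT. Inside each of the 9 genes all edKO points lie below all WT points, while at the ends the points lie between 1034 and 2360 bp, with Ces1e at 0.

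Genes with more interior length in every edKO heart were few, and none passed. Pik3r4, a regulatory subunit of the class III lipid kinase of autophagy, had 2017, 1333 and 1360 bp in edKO hearts, against 656, 700 and 958 bp in WT hearts (log2 difference 1.04, SE 0.30, limma adjusted p = 0.396). Ak5, an adenylate kinase, had 4036, 3180 and 3045 bp in edKO hearts, against 2077, 2790 and 1937 bp in WT hearts. Tbx18, a transcription factor of the epicardium and sinus node, had 1319, 1021 and 1530 bp in edKO hearts, against 496, 1008 and 331 bp in WT hearts. Tbx18 is also in the epicardial marker list, in which 2 of 9 genes were called in all 6 hearts. The list's summed length was 13805 to 18301 bp in edKO hearts and 12188 to 18782 bp in WT hearts, and its part in the result was not tested. Arhgef5, Gdi2, Prnp and Ppp3ca, the catalytic subunit of calcineurin, were also higher in every edKO heart, with log2 differences of 0.72 to 1.14 and limma adjusted p-values of 0.506 to 0.622.

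Whether the interior of a gene changed differently from its ends was tested in the 3453 genes with enough covered length in both. Length at the ends has a ceiling, since only bases within 1 kb of the gene's start and end were counted. No gene passed (limma adjusted p under 0.05, 0%), with 147 (4.26%) at an unadjusted p under 0.05 in which the interior was lower relative to the ends and 66 (1.91%) in which it was higher. Of the 7 genes called above, 6 could be tested. Their interior differed from their ends by log2 -2.71 to -1.11 between genotypes, with limma adjusted p-values of 0.0892 to 0.106. In Acsl1 this difference was -0.52 (limma adjusted p = 0.689).

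**Figure D5:**
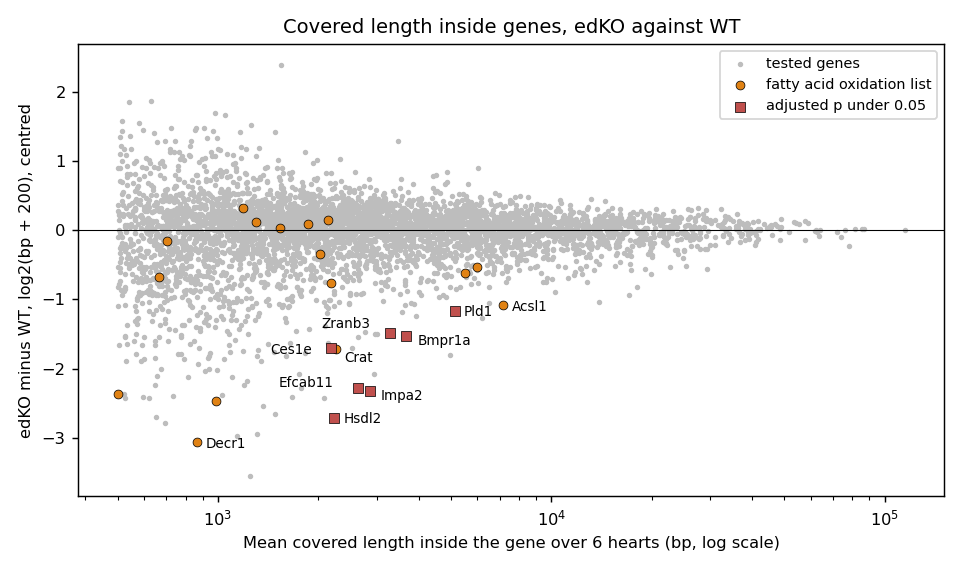
Difference in covered length inside genes, edKO minus WT, on the centred log2(bp + 200) scale, against the mean covered length over 6 hearts (bp, log axis), for the 4791 genes tested; orange marks the fatty acid oxidation list and red squares the 7 genes with an adjusted p under 0.05. All 7 lie below 0, and 11 of the 16 orange points do.

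No gene of the fatty acid oxidation list passed over all genes (0%, against 0.146% lower and 0% higher of all genes tested). Of 30 listed genes, 29 were matched on autosomes, 19 had an interior region and 16 passed the filter on covered length. Their median log2 difference was -0.57, against 0.03 over all 4791 genes, and 11 of 16 lay below 0, against 46.5% of all genes tested. The median was -0.76 without centring and -0.53 with quantile normalization. Every edKO heart lay below every WT heart in 9 of 16 (10.9% of all genes tested), and 6 had an unadjusted p under 0.05 in that direction (5.11% of all genes tested). Besides Crat and Acsl1, Decr1, the dienoyl-CoA reductase for unsaturated fatty acids, had no called interior region in edKO hearts, against 1396, 2024 and 1756 bp in WT hearts (limma adjusted p = 0.184). Hadha, the partner of Hadhb and named after its values were seen, likewise had none in edKO hearts, against 1302, 1044 and 664 bp in WT hearts (limma adjusted p = 0.506). Decr1 and Hadha thus passed the filter through the WT hearts alone. Slc22a5, named after its values were seen, also needed its WT length to pass. It had 0, 0 and 539 bp in edKO hearts, against 1426, 1543 and 2408 bp in WT hearts. Decr1, Hadha and Slc22a5 are among the 9 and the 6, where their direction was fixed by how they entered. Hadhb, with the most interior regions of the list (11), had 5223, 4136 and 4008 bp in edKO hearts, against 6158, 6875 and 9574 bp in WT hearts (limma adjusted p = 0.763). Cpt1a, the carnitine palmitoyltransferase of liver and newborn heart and also named after its values were seen, had 1387, 1381 and 1227 bp in edKO hearts, against 668, 1539 and 3034 bp in WT hearts, and overlapped.

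In the other lists, too, no member passed. Of 29 tested genes of calcium handling and ion channels, 18 lay below 0 (46.5% of all genes tested) and 6 had an unadjusted p under 0.05 in that direction (5.11% of all genes tested). The median was -0.09, and close to 0 without edKO heart 3. Cacna1h, a T-type calcium channel, had 1403, 1048 and 3918 bp in edKO hearts, against 8770, 6716 and 8032 bp in WT hearts (log2 difference -1.80, limma adjusted p = 0.219). Cacna1c had 23868, 12865 and 31371 bp in edKO hearts, against 38682, 33461 and 35868 bp in WT hearts (limma adjusted p = 0.580). Scn4a, a sodium channel known from skeletal muscle, had 441, 0 and 1517 bp in edKO hearts, against 3520, 2913 and 4121 bp in WT hearts. Slc8a1, the sodium-calcium exchanger, had 18206, 9637 and 11455 bp in edKO hearts, against 20021, 20708 and 24214 bp in WT hearts.

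Among 29 tested RXR partners and metabolic regulators the median was -0.04, with 17 below 0 (46.5% of all genes tested). At an unadjusted p under 0.05, 3 were lower (5.11% of all genes tested), and 1 was without centring or with quantile normalization. Nrip1, a corepressor of nuclear receptors, had 2487, 1372 and 2630 bp in edKO hearts, against 5189, 4803 and 3592 bp in WT hearts (log2 difference -0.85, limma adjusted p = 0.277). Ppargc1a, the coactivator PGC-1alpha, held the most regions of the list (54) and had 68872, 45780 and 58229 bp in edKO hearts, against 64771, 62438 and 54330 bp in WT hearts. The deleted gene Rxra held 19 interior regions, with 9642, 4532 and 13300 bp in edKO hearts and 6452, 10737 and 13602 bp in WT hearts, and overlapped. Rxrb had no called interior region in edKO hearts and 367, 0 and 969 bp in WT hearts.

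For fatty acid uptake, storage and release (14 tested) the median was -0.11, for glucose use (11 tested) -0.06, for the sarcomere and Z-disc (23 tested) -0.11, for cardiac transcription factors (25 tested) 0.03 and for the cell cycle (8 tested) 0.15. The last 2 were -0.16 and -0.04 without centring. The sarcomere median was 0.01 without edKO heart 3, and with lists of equal length the glucose median was 0.04 and that of the transcription factors -0.02. At an unadjusted p under 0.05, the first 3 of these lists had 1 lower gene each, the transcription factors 2, and the cell cycle 1 lower and 1 higher. Cd36, the fatty acid transporter, had 21364, 13890 and 13753 bp in edKO hearts, against 25468, 25670 and 19894 bp in WT hearts. Synpo2, a Z-disc protein, had 15298, 11937 and 15677 bp in edKO hearts, against 29723, 26738 and 19951 bp in WT hearts (log2 difference -0.63, limma adjusted p = 0.219). Meis2, a homeobox factor, had 14211, 10046 and 11383 bp in edKO hearts, against 19139, 20095 and 18414 bp in WT hearts (log2 difference -0.51, limma adjusted p = 0.322). Among markers of cell types, the 11 tested cardiomyocyte genes had a median of -0.01 (0.01 with quantile normalization), the 9 endothelial genes 0.24 (0.05 without centring) and the 4 fibroblast genes -0.06 (0.03 with lists of equal length). Without edKO heart 3 the cardiomyocyte and fibroblast medians were 0.11 and 0.08. The summed length of the 16 cardiomyocyte markers over the whole gene was 206558 to 277938 bp in edKO hearts and 254336 to 267082 bp in WT hearts.

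Interior regions restricted to a genotype were those called in all 3 of its hearts and in none of the other 3. There were 29 edKO-only regions (0.0722% of interior regions, 95% Wilson interval 0.0503 to 0.104%), against 57 edKO-only regions among all 77817 union regions (0.0732%). WT-only interior regions numbered 477 (1.19%, 95% Wilson interval 1.09 to 1.30%), against 833 among all union regions (1.07%). At gene ends 3 were edKO-only and 59 WT-only (0.430%), and outside genes 25 were edKO-only and 297 WT-only (1.24%). The intervals cover counting error only, since regions of 1 heart are not independent. With lists of equal length the counts were 67 edKO-only and 232 WT-only, and without edKO heart 3 they were 311 and 557. No region was tested alone, because the smallest exact p that 3 against 3 hearts allow is 0.1.

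Of the 3311 interior regions called in exactly 3 hearts, 0.876% were edKO-only, 14.4% were WT-only, and 2805 were called in hearts of both genotypes. The WT-only regions had a median width of 748 bp and a median fold percentile of 29.6, against 684 bp and 25.8 for the mixed ones. The WT-only regions lay in 424 genes. In 330 of these genes the ends were called in all 3 edKO hearts, and in 325 another interior region was. The same shares were not counted over all 7228 genes with an interior region, so these counts do not set the 424 genes apart. Corin, the protease that activates atrial natriuretic peptide, and Fto, an RNA demethylase, held 4 WT-only regions each, and 12 genes held at least 3. In Corin, interior length was 8998, 5237 and 10551 bp in edKO hearts, against 27160, 18403 and 13354 bp in WT hearts, without overlap (limma adjusted p = 0.254). In Fto it was 12996, 6759 and 6958 bp in edKO hearts, against 20390, 12309 and 17545 bp in WT hearts (limma adjusted p = 0.588), and WT heart 3 lay below edKO heart 1.

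The best-ranked WT-only region lay in Nrip1, at chr16:76293270-76295325, 2056 bp wide, with a mean fold percentile of 84.1 and 1892, 2022 and 1480 bp in WT hearts 1, 3 and 4. It was followed by those of Zranb3 (83.0), Hsdl2 (82.9) and Elmod3 (78.5). Next were Adra1b, the alpha-1B adrenergic receptor (77.2), Iqsec1, an exchange factor for ARF GTPases (75.6), Decr1 (74.1) and Bmpr1a (73.0). Over all restricted interior regions, the median fold percentile was 23.9 for the 29 edKO-only and 29.6 for the 477 WT-only ones. The best-ranked edKO-only regions also had lower percentiles, but the top of a smaller set tends to rank lower. The first lay in Pde10a, a phosphodiesterase, at chr17:8629585-8630413, with a mean fold percentile of 63.2 and 714, 451 and 696 bp in edKO hearts 1, 3 and 6. The next lay in Bdh1, the enzyme that interconverts ketone bodies, at chr16:31428759-31430117, with 430, 249 and 1359 bp and a mean percentile of 47.5. It was the only interior region of Bdh1. The others of the first 8 lay in Ttc39b, Syn3 with the nested Timp3, Cald1, Tnrc6c, Flt1 and Msrb3, with percentiles of 46.8 down to 31.3.

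Few restricted regions lay on internal start sites. Regions called in all 6 hearts cannot be restricted, and these made up 81.1% of interior regions on a start and 24.7% of the others. Of the 1222 interior regions on an annotated start, 2 were edKO-only (0.164%), in Bdh1 and Gata3, against 27 (0.0693%) of the other interior regions. Both touched the start window by an edge, 44 bp in Bdh1 and 43 bp in Gata3, and in edKO heart 6 alone. In edKO hearts 1 and 3 no called base lay in either window. Another 3 of the 1222 regions were WT-only (0.245%), in Gabrb2, Mllt3 and Pde2a, against 474 (1.22%) of the others. The WT-only region of Mllt3 covered 652, 552 and 281 bp in WT hearts 1, 3 and 4, and that of Pde2a covered 372, 270 and 356 bp. With distance from the gene end, the WT-only share was 1.48% of interior regions at 1 to 1.5 kb, 1.31% at 5 to 10 kb and 1.19% beyond 50 kb.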

How the data were processed

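H3K27ac ChIP-seq of 6 hearts was used; the 6 input samples of the series have no lists of their own and were not used. Per the submitters' processing notes, the tools were cutadapt, BWA, SAMtools and MACS2, without versions, with builds mm10 and GRCm38. No source used here gives the MACS2 settings or controls. The authors deposited 1 narrowPeak list per heart (80182 to 114098 entries), so regions were called on each heart. Its signal column is the authors' fold enrichment, a ratio to background, and its significance columns are the deposited −log10 p-value and −log10 q-value, the smallest −log10 q being 1.30. These values only ranked or filtered regions within a list. Entries of 1 region with several summits were merged.

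Gene bodies came from a RefSeq table of GRCm38.p6, which gives no strand or exons. Sums per gene used log2(bp + 200), centred per heart by genes with length in every heart, genes with a mean of at least 500 bp, and limma 3.58.1 in R 4.3.3 (trend, robust, genotype as the only term). Benjamini-Hochberg adjustment ran over all genes tested. Values on this scale understate changes of genes with little covered length. The test was tried on simulated data, and no result here rests on that trial. Medians per heart were compared by exact permutation (20 assignments) or sign-flip (64 patterns) tests in scipy 1.17.1, with Python 3.11.15, numpy 2.4.6, pandas 2.3.3 and matplotlib 3.10.9.

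The members, gene lists and tests were chosen with earlier results of these data known. Genes were named by rule: the 12 with the most interior regions, the 6 with the most in all hearts, the 6 densest (at least 8 regions), up to 12 lower and 8 higher genes by p (places left over going to genes with separated genotypes), the 8 best-ranked restricted regions and the 5 genes with the most restricted regions per genotype, the 5 widest regions, and per list the 3 members with the smallest p and the one with the most regions. Some items that the rule would name are not reported here. Rxra and Rxrb are named as the deleted genes, and the genes of printed windows, of restricted start sites and of miRNAs were chosen after their values were seen. Alternatives were other pseudocounts, filters, scalings and gene-end limits, stricter or equal-length lists, a replicate block and leaving out each heart.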

Additional observations from a re-analysis of the deposited data

How the results depend on the processing

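The count of genes with less interior length in edKO (7) was 11 with a pseudocount of 1000 bp, 1 without centring, 1 with lists of equal length, 0 with stricter lists (−log10 q of at least 5), and 0 to 3 leaving out 1 heart; with a pseudocount of 50 bp, no filter, a filter of 2000 bp, quantile normalization or a limit of 5 kb it was 5, 9, 6, 6 and 6. At the stricter lists, 219 genes were lower and 60 higher at an unadjusted p under 0.05 (limma). Higher genes stayed at 0 in every alternative, and leaving out 1 heart gave 54 to 94 higher at an unadjusted p under 0.05. Interior against ends gave 5 lower genes with a pseudocount of 1000 bp and 1 higher gene without a filter, and 0 in the other alternatives, leaving out a heart included. Only the numbers 1 and 3 are shared by the genotypes and nothing says that a number marks a shared litter or day. Same-numbered hearts correlated at r = 0.119 and 0.109 in their deviations from the group means, other pairs at -0.244 to 0.196. With the number as a replicate block, 10 genes were lower, of which 2 were among the 7.

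With 5 hearts an exact sign-flip test cannot go below p = 0.0625, so each comparison of interior regions with other classes loses its call when a heart is left out. The differences from gene ends then ran from -755 to -698 bp in width, -41.0 to -40.0 in fold percentile, -19.7 to -16.7 percentage points in several summits and -33.3 to -29.5 points in sharing by all 6 hearts. Against regions outside genes they ran from 4 to 7 bp, -1.94 to -1.26, 1.81 to 2.21 points and 0.453 to 2.82 points. Sharing was still defined by all 6 hearts when a heart was left out. Among regions called in all 6 hearts, the difference from gene ends in several summits was -6.70 points (exact sign-flip p = 0.0625). With stricter lists, interior regions were 84.2 bp wider than regions outside genes (exact sign-flip p = 0.03125) and 0.0563 higher in fold percentile (p = 1).

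For edKO minus WT, leaving out a heart gave -8436 to -2227 interior regions, -3.59 to -0.427 points of the list, -47.5 to 122 bp in median width and -1.27 to -0.464 in fold percentile; with lists of equal length the width difference was -92.8 bp (exact permutation p = 0.4) and the percentile difference 0.204 (p = 0.7), both turned round. The covered length difference ran from -5046700 to -705256 bp. The share called only in edKO hearts was 0.108% with stricter lists and 0.221% with equal lengths. The share called only in WT hearts was 1.40% when at least 50% of the region had to be covered and 0.767% with equal lengths. Leaving out a heart, which asks for fewer hearts, gave 0.184 to 0.782% and 1.40 to 3.44%. Other causes were not tested. List length, and with it every count here, may follow read depth, which is unknown per heart.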
